A study of Homo sapiens with 8 samples.

Results

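The ligands examined were 10 genes whose proteins are read by inhibitory or costimulatory receptors of immune cells. They were the B7 genes CD274 (PD-L1), PDCD1LG2 (PD-L2), CD276 (B7-H3), VTCN1 (B7-H4), ICOSLG, CD80 and CD86, the nectin family ligands PVR (CD155) and NECTIN2 (CD112), and CD47. Members were found by RefSeq accession, symbol or alias. All 10 had a probe, among 20296 genes with a named probe on these arrays. For each gene the probe with the highest mean level over the arrays was used.

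MCF10A is a non-tumorigenic human breast epithelial cell line. The groups were MCF10A p53+/+ and MCF10A p53−/− cells, each left untreated (0 h) or harvested 12, 24 or 48 h after exposure to adriamycin (ADR, also called doxorubicin), a drug that breaks DNA, at 0.5 µg/ml for 2 h per the labels. The study's methods state a higher dose. Each of the 8 conditions was measured on 1 single-colour Agilent array, so no condition had a replicate, and the labels do not say how many clones stand behind the p53−/− line.

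PD-L1 and PD-L2 bind PD-1 on T cells and dampen T cell signalling. CD80 and CD86 bind CD28, which costimulates T cells, and CTLA-4, which inhibits them, and they are best known from dendritic cells and B cells. PVR and NECTIN2 are read by the activating receptor DNAM-1 and the inhibitory receptor TIGIT on T cells and NK cells, while CD47 binds SIRPα on macrophages and restrains phagocytosis. In epithelial cells PD-L1 is known to be raised by interferon, with IRF1 as a factor of this route.

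Promoter sequences, taken from RefSeq (GRCh38.p14), were held for 9 of the 10 members. PDCD1LG2 had none. Each window spans the 250 bases before a start site. The 2 windows below are shown because they belong to the 2 members whose measured level passed 2-fold at all 3 treated times in one genotype, and because they hold interferon or NF-kB motifs. In the CD274 window, chr9:5450292-5450541 on the plus strand, capitals mark 2 overlapping interferon stimulated response elements (a GAAA and a second GAAA with 2 bases between them, 208 to 199 and 202 to 193 bases before the start) and 1 interferon gamma activated site (TTCNNNGAA, 125 to 117 bases before it). In the second of 2 CD86 windows, chr3:122077534-122077783 on the plus strand, capitals mark 2 NF-kB cores (GGG and TTCC with 3 bases between them, 82 to 73 and 20 to 11 bases before the start).
CD274: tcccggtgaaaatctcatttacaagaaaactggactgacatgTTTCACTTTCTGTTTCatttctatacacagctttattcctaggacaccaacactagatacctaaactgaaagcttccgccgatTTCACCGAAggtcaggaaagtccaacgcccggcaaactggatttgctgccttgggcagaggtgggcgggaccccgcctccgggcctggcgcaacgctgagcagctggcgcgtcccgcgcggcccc
CD86: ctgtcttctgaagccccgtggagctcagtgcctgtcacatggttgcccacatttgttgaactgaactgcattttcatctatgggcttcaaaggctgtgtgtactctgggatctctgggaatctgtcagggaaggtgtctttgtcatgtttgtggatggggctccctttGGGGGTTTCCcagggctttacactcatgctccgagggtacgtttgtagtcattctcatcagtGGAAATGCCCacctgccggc
Both strands were searched. The response element was found in 3.02% of 35116 promoters, the activated site in 6.57% and the NF-kB core in 5.67%. Among the 9 members, each of these motifs was found in 1 gene. The GC box (GGGCGG) was found in 5 of the 9 members and 42.6% of promoters. The AP-1 site (TGANTCA, 6.57% of promoters), the TATA box (TATAAA, 10.7%) and the p53 half-site consensus (5.57%) were found in no member. A match describes the letters of the window and not binding. CD274 and PDCD1LG2 are neighbours on chromosome 9 with 0 protein-coding genes between them, and PVR and NECTIN2 lie on chromosome 19 with 4 between them.

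The labels were checked with 2 known targets of p53. Levels are log2 processed signals relative to the 75th percentile of the array, and they compare arrays for 1 probe, not 1 gene with another. In time order, CDKN1A (p21) read −1.13, 2.55, 2.63 and 2.70 in p53+/+ cells, against −2.95, −0.94, −0.63 and −0.47 in p53−/− cells. MDM2 read −1.65, 1.29, 1.49 and 1.76, against −1.31, −2.03, −1.32 and −1.56. On the array labelled p53+/+ 0 h, MDM2 lay within the range of the p53−/− arrays while CDKN1A lay above the p53−/− 0 h array and below the treated p53−/− arrays, so these targets did not settle its label. Every change counted from it carries this doubt, and comparisons that do not use it are given beside such changes.

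Other gene groups also differed between the treated genotypes. Of 10 epithelial markers, all were well above background on at least 1 array, and 7 were higher in treated p53+/+ than in treated p53−/− cells (limma, adjusted p under 0.05) and 0 lower. Of all 15811 genes above background on at least 1 array, 1812 were higher and 1487 lower. CDH1 (E-cadherin) was at −3.12 on the array labelled p53+/+ 0 h, at 1.43, 2.00 and 2.11 after ADR, and −3.53, −3.28, −2.19 and −0.93 in p53−/− cells. The log2 of the summed signal of the epithelial list was 7.98 to 8.59 on the treated p53+/+ arrays and 6.45 to 7.07 on the treated p53−/− arrays. Of 4 fibroblast markers 2 were lower, and the summed level was 2.11 to 2.39 against 5.72 to 6.08. This sum is nearly all DCN, which alone read 2.10 to 2.38 against 5.71 to 6.07. Of 3 endothelial markers 1 was lower, and the summed level of the 3 was −2.65 to −2.24 against −1.58 to −1.08. Of 9 leukocyte markers 1 was lower, and the summed level was 2.83 to 3.13 against 3.19 to 3.45. Its members PTPRC, CD4, CD14 and CD68 were well above background on all 8 arrays, CD4 at 1.64 to 2.22, whereas MS4A1, ITGAX and CD163 were on none. Without the 24 h arrays the epithelial calls went from 7 to 0, the fibroblast calls from 2 to 1 and the endothelial call to 0, and the leukocyte call was lost whenever a time point was left out. The lower markers COL1A1 and PECAM1 were above background on 5 arrays, so they could enter through arrays where they were high. Where all 6 treated arrays had to be above background, 7 of 9 epithelial markers were higher. Lower were then 1 of 1 fibroblast, 0 of 1 endothelial and 1 of 4 leukocyte markers. The part of these differences in the results below was not tested.

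Of the 10 ligands, 8 were well above background on at least 1 array, as were 15811 of all 20296 genes. CD276, PVR, NECTIN2 and CD47 were above background on all 8 arrays, CD274 and CD86 on 7, PDCD1LG2 on 5 and VTCN1 on 1. ICOSLG and CD80 were above background on none. ICOSLG, the ligand of ICOS, read −6.76 to −4.93 and CD80 −6.56 to −6.18, so neither was given a change or a test. The plot of levels by time shows the other 8.

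**Figure D1:**
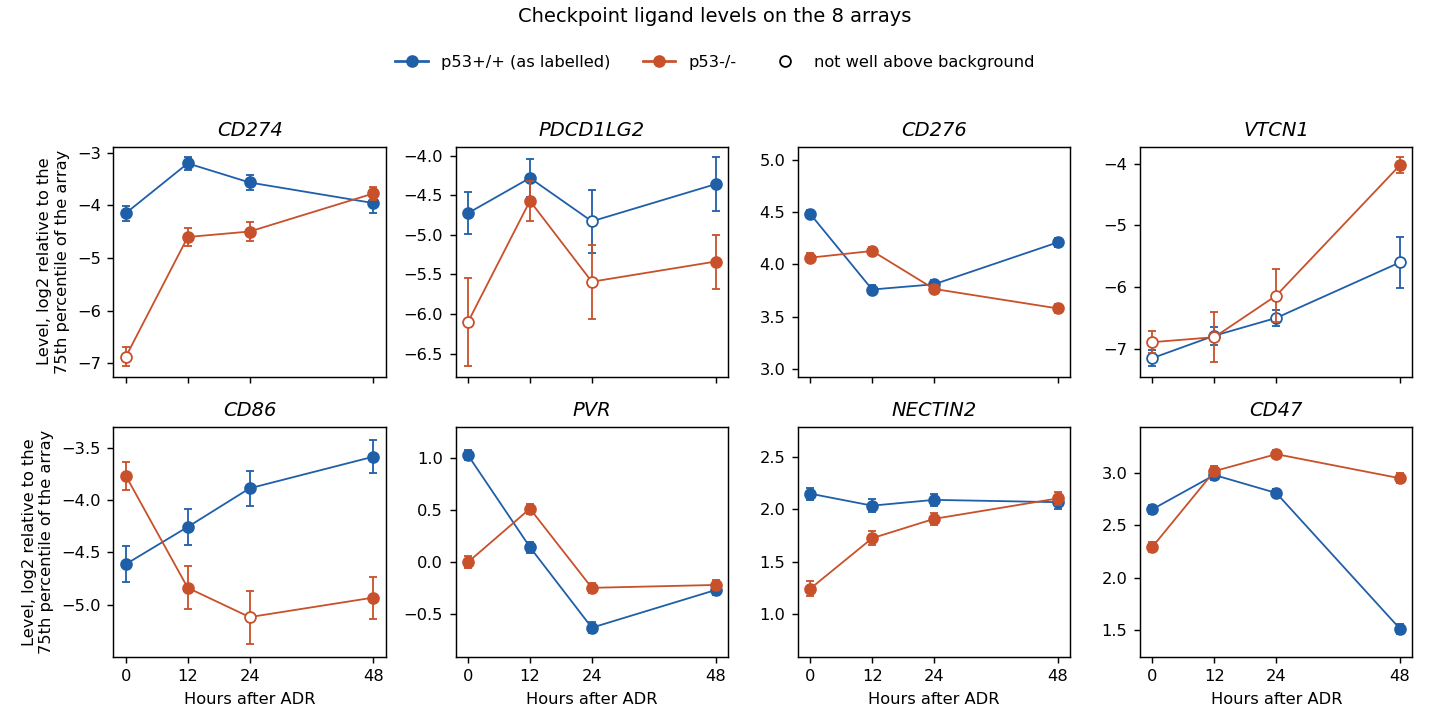
Level of 8 checkpoint ligands (vertical axis, log2 of the processed signal relative to the 75th percentile of the array) by hours after ADR (horizontal axis) in p53+/+ (blue) and p53−/− cells (orange). Each point is 1 array, bars are the technical SD between spots, and open points were not well above background. CD274 was lowest on the p53−/− 0 h array, CD86 moved apart between the genotypes, and CD47 was lowest on the p53+/+ 48 h array. Vertical scales differ between panels.

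By its brighter probe CD274 rose in p53−/− cells after ADR. In p53+/+ cells it changed by less than 2-fold from the array labelled p53+/+ 0 h, and was more than 2-fold above the p53−/− 0 h array. Its level was −6.87, −4.60, −4.50 and −3.77 in p53−/− cells in time order. The first of these was not above background (signal 7.39), whereas the 48 h array gave a signal of 87.1. On the array labelled p53+/+ 0 h it was −4.15, and after ADR −3.20, −3.57 and −3.96. The treated arrays of the 2 genotypes overlapped, since the p53−/− 48 h array lay above the p53+/+ 48 h array. Because the p53−/− 0 h array was below background, its rise is given as a bound. A bound sets the brighter array against the dim array's own level or the lowest level of any probe well above background on it, whichever is higher. By this bound CD274 rose at least 1.54-fold at 12 h, at least 1.65-fold at 24 h and at least 2.72-fold at 48 h. The measured log2 changes were 2.27, 2.37 and 3.10, with a technical SD of 0.22 to 0.25. All 3 share the p53−/− 0 h reading, whose 2 spots lay 0.99 apart on the log2 scale. The technical SD comes from probes printed in 10 spots and leaves out all variation between cultures. In p53+/+ cells the log2 changes were 0.94 ± 0.19, 0.58 ± 0.20 and 0.19 ± 0.24 (technical SD) from the array labelled 0 h. From the p53−/− 0 h array the same levels were at least 4.05-, 3.15- and 2.40-fold higher.

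At 48 h the CD274 levels of the genotypes differed by less than the technical SD. Between genotypes its log2 difference, p53+/+ minus p53−/−, was 1.40, 0.93 and −0.18 at 12, 24 and 48 h (technical SD 0.22 to 0.23). At 0 h the array labelled p53+/+ was at least 2.10-fold above the p53−/− array. Over the 6 treated arrays limma gave a log2 difference of 0.71 (SE 0.31, adjusted p = 0.156). In this fit the 3 time points of a genotype stand in for replicates, so its error includes movement over time. With normexp background correction the same difference was 0.63 and passed (limma adjusted p = 0.0197). The second CD274 probe was above background on 1 array only, p53−/− at 48 h. There it read −5.41, as on the p53−/− 0 h array, a log2 change of −0.006. At 12 and 24 h it changed by −0.32 and −1.46, between readings not above background. The second probe thus did not show the rise, which rests on the brighter probe.

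PDCD1LG2, the neighbour of CD274, was near the background throughout. It read −4.72, −4.28, −4.83 and −4.36 on the p53+/+ arrays, against −6.10, −4.57, −5.59 and −5.34 for p53−/−. The p53−/− 0 h array was again the lowest. Only the 12 h change in p53−/− cells passed the 2-fold rule (log2 1.53, technical SD 0.61), with a bound of at least 1.57-fold. The treated genotypes overlapped, and limma gave 0.68 (SE 0.32, adjusted p = 0.185), which passed under normexp background correction at 0.55. The other PDCD1LG2 probe was above background on 0 arrays.

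CD276 and VTCN1 are B7 proteins without a settled receptor on T cells. CD276 was well above background everywhere and moved within 0.90 on the log2 scale. It read 4.48, 3.76, 3.81 and 4.21 in p53+/+ cells, against 4.06, 4.13, 3.76 and 3.58 in p53−/− cells. The treated genotypes overlapped. In p53−/− cells it went from 4.13 at 12 h to 3.58 at 48 h, while in treated p53+/+ cells it went from 3.76 to 4.21. The genotype difference was accordingly −0.37 at 12 h, 0.04 at 24 h and 0.63 at 48 h, each with a technical SD of 0.06. limma gave 0.10 (SE 0.23, adjusted p = 0.800), and the second probe gave 0.19 (adjusted p = 0.616). The direction of the CD276 estimate turned to −0.030 with median scaling, −0.49 with no scaling and −0.16 without the 48 h arrays.

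VTCN1 was above background only on the p53−/− 48 h array. It read −7.15, −6.79, −6.50 and −5.60 in p53+/+ cells, against −6.89, −6.81, −6.14 and −4.02 in p53−/− cells. The last value was at least 2.29-fold above the p53−/− 0 h array and at least 1.51-fold above the p53+/+ 48 h array. This rests on 1 array and 1 probe, and the second VTCN1 probe was above background on none. limma gave −0.64 (SE 0.73, adjusted p = 0.587), and the sign turned with normexp (0.24) or a signal floor (0.40).

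CD86 was the only ligand whose difference between the treated genotypes passed the test. Its level was −4.61, −4.26, −3.89 and −3.58 on the p53+/+ arrays, against −3.77, −4.84, −5.12 and −4.93 for p53−/−. All 3 treated p53+/+ arrays lay above all 3 treated p53−/− arrays, as in 24.3% of all genes above background. No ligand showed the opposite order, which 20.1% of genes did. The highest readings, p53+/+ at 48 h and p53−/− at 0 h, differed by less than the technical SD (0.18, technical SD 0.21). In treated cells the log2 difference was 0.58, then 1.23, then 1.35 in time order (technical SD 0.26 to 0.30). At 0 h the order was the reverse, −4.61 on the array labelled p53+/+ against −3.77 for p53−/−. limma gave 1.05 (SE 0.23, adjusted p = 0.0245) over the 6 treated arrays. Of the 8 ligands tested, 1 was called, where 17.9% of 28947 probes were called, 10.4% higher and 7.46% lower in p53+/+. The share of ligands called was thus no larger than that of all probes.

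Counted from 0 h, CD86 moved in opposite directions. In p53−/− cells it was 2.10-fold lower at 12 h, at least 2.55-fold lower at 24 h, where it was not above background, and 2.24-fold lower at 48 h. From the array labelled p53+/+ 0 h it was 0.36, 0.73 and 1.03 higher on the log2 scale (technical SD 0.24). From the p53−/− 0 h array the same treated p53+/+ levels were −0.49, −0.12 and 0.18. The rise in p53+/+ cells therefore depended on which 0 h array was used. CD86 was a dim probe, with signals of 32.7 to 63.6, and it had no second probe. With no scaling of the arrays the estimate was 0.46 (limma adjusted p = 0.109), and without the 12, 24 or 48 h arrays it was 1.29, 0.97 or 0.91 (adjusted p = 0.0507, 0.239 and 0.0979), so the call was lost in each of these 4 fits.

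**Figure D2:**
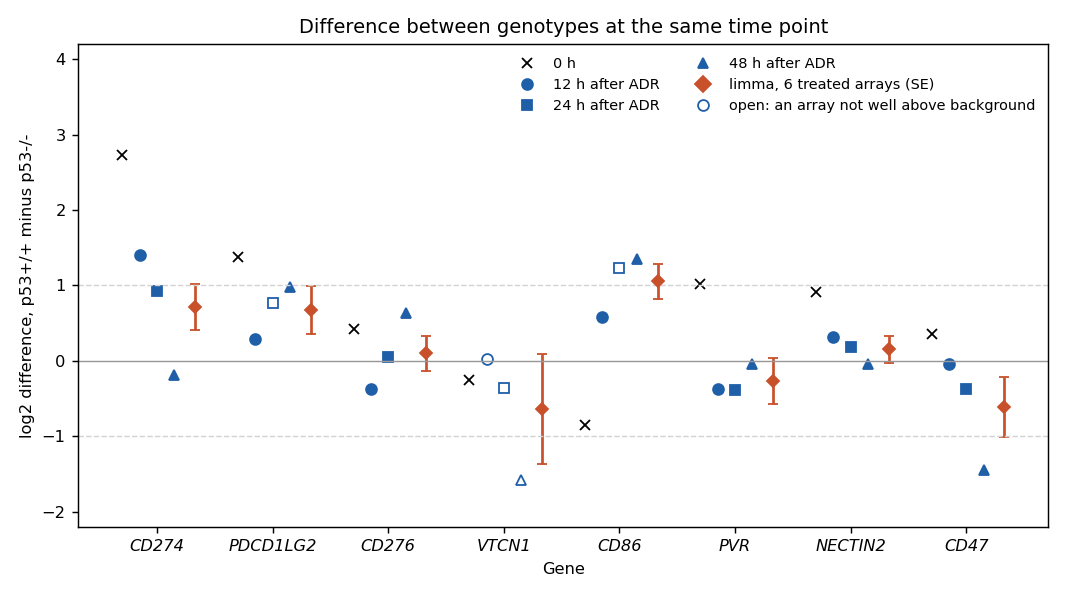
Difference between p53+/+ and p53−/− cells (vertical axis, log2) for 8 ligands (horizontal axis) at 0, 12, 24 and 48 h, with the limma estimate over the 6 treated arrays and its SE (orange). Open symbols mark treated pairs with an array not well above background, and dashed lines mark 2-fold. CD86 lay above 0 at all 3 treated times and below 0 at 0 h. The 0 h values of CD274 and PVR also lay away from their treated values.

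PVR was lower in treated p53+/+ cells than on the array labelled p53+/+ 0 h, and not by 2-fold against the p53−/− 0 h array. It read 1.02, 0.14, −0.63 and −0.27 in p53+/+ cells, against −0.00, 0.51, −0.25 and −0.22 in p53−/− cells. The array labelled p53+/+ 0 h was the highest of the 8, and the treated genotypes overlapped. The log2 changes in p53+/+ cells were −0.88, −1.65 and −1.29 (technical SD 0.07). Against the p53−/− 0 h array the same treated levels were 0.14, −0.63 and −0.27, all under 2-fold. Between treated genotypes PVR was lower in p53+/+ at all 3 times, by −0.37, −0.38 and −0.05, and limma gave −0.27 (SE 0.30, adjusted p = 0.589).

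PVR had 3 probes, which did not give the same course in p53−/− cells. In p53+/+ cells the second probe changed by −0.73, −1.37 and −0.79 and the third by −0.54, −0.70 and −1.13, so all 3 probes read below the array labelled p53+/+ 0 h, which they share. The 24 h reading of the second probe and the 24 and 48 h readings of the third were not above background. From the p53−/− 0 h array the second probe gave 0.51, −0.14 and 0.44 and the third 0.24, 0.08 and −0.36, so no common fall was seen from that array. In p53−/− cells the second changed by 0.83, 0.41 and 0.60 and the third by 0.76, 0.36 and 0.47, whereas the brightest probe changed by 0.51, −0.25 and −0.22. The direction in p53−/− cells at 24 and 48 h thus depended on the probe.

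NECTIN2 changed by less than 2-fold in both genotypes. It read 2.15, 2.03, 2.09 and 2.07 in p53+/+ cells, against 1.24, 1.72, 1.91 and 2.10 in p53−/− cells. The p53−/− arrays stood in time order and reached the p53+/+ level at 48 h. The log2 changes in p53−/− cells were 0.48, 0.67 and 0.86 (technical SD 0.09 to 0.10). limma gave 0.15 (SE 0.18, adjusted p = 0.607), turning to −0.44 with no scaling and −0.053 with normexp. The other NECTIN2 probe, of transcript NM_002856, did not show this course in p53−/− cells. It changed by 0.06, 0.03 and 0.02 in p53−/− cells and by 0.17, 0.09 and −0.90 in p53+/+ cells. The 2 probes carry different transcript accessions, and each array held 1 spot of the brighter one.

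**Figure D3:**
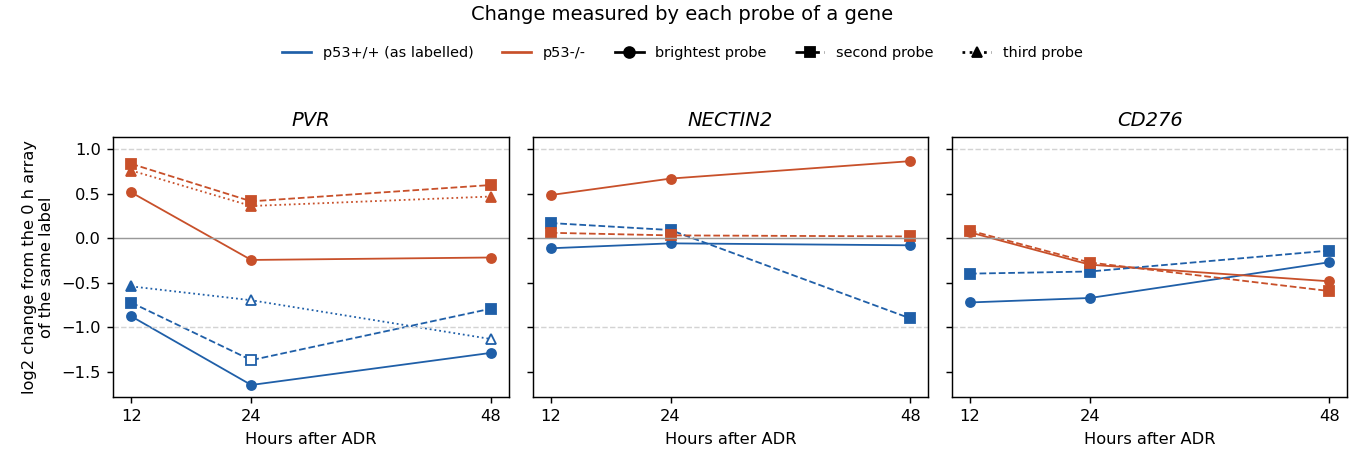
Change from the 0 h array of the same label (vertical axis, log2) by hours after ADR (horizontal axis) for each probe of PVR, NECTIN2 and CD276, in p53+/+ (blue) and p53−/− cells (orange). Line style and symbol mark the probe, and open symbols mark changes with an array not well above background. All PVR probes lie below 0 in p53+/+ cells against the array labelled p53+/+ 0 h, the NECTIN2 probes differ, and the CD276 probes run together.

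CD47 was high on 7 arrays and lower on the p53+/+ 48 h array. It read 2.65, 2.98, 2.81 and 1.51 in p53+/+ cells, against 2.29, 3.02, 3.18 and 2.95 in p53−/− cells. In p53−/− cells it was 0.72, 0.89 and 0.66 above 0 h on the log2 scale (technical SD 0.06 to 0.07), under 2-fold at each time. In p53+/+ cells it was 0.33 and 0.16 above 0 h and then −1.14 at 48 h. From the p53−/− 0 h array the 48 h level was −0.79, which is under 2-fold. At 48 h it was 2.71-fold lower in p53+/+ than in p53−/− cells. Over the treated arrays limma gave −0.62 (SE 0.40, adjusted p = 0.324), and −0.20 without the 48 h arrays. The p53+/+ 48 h array also held 223 probes that read at least 4-fold lower than on any other array, against 0 to 17 such probes on each of the others. Its part in the low CD47 reading was not tested.

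The genes most like CD47 and PVR, the 2 ligands of widest range among those above background on all arrays, were sought among 11827 genes above background on all 8 arrays. For CD47 they were GINS4 (Pearson r = 0.974), CFAP119 (0.968) and GLA (0.966). GINS4 read −0.97 on the p53+/+ 48 h array and 1.89 to 3.54 on the others, so the likeness rests mainly on that array. For PVR they included CPSF6 (0.976) and ANAPC1 (0.956). CPSF6 stood at 2.05 on the array labelled p53+/+ 0 h and 1.22 to 1.79 on the others. These are descriptions over 8 arrays that share labels, scaling and slide.

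Counted together, between 0 and 2 of the 8 ligands passed 2-fold at a given time in a given direction. The share of all genes that did so is given in brackets. In p53+/+ cells none rose at 12 h (11.4% of genes) or 24 h (13.9%), and CD86 rose at 48 h (15.3%). None fell at 12 h (9.97%), PVR fell at 24 h (13.4%), and PVR and CD47 fell at 48 h (11.8%). In p53−/− cells CD274 and PDCD1LG2 rose at 12 h (3.91%), CD274 at 24 h (7.93%), and CD274 and VTCN1 at 48 h (14.2%). These are measured changes from a 0 h reading not above background, and by the bounds only the 2 rises at 48 h were beyond 2-fold. CD86 fell at 12 h (4.83%), 24 h (5.21%) and 48 h (7.37%). At all 3 times, 0 ligands rose (8.19%) and 0 fell (6.25%) in p53+/+ cells, and in p53−/− cells 1 rose, CD274 (2.56%), and 1 fell, CD86 (2.1%). From the p53−/− 0 h array, treated p53+/+ cells held 1 rise at all 3 times, CD274 (8.04%), and 0 falls (6.79%).

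The change in p53+/+ cells was at least 2-fold above that in p53−/− cells at all 3 times for CD86 (8.92% of genes) and at least 2-fold below it for CD274 and PVR (8.29%). These counts use both 0 h arrays. When the treated arrays were compared directly, 0 ligands were at least 2-fold higher (6.22%) and 0 at least 2-fold lower (5.77%) at all 3 times. The mean difference of the changes was 1.90 for CD86. Its values were 1.43, 2.08 and 2.19 (technical SD 0.34 to 0.38). For CD274 the measured values were −1.33, −1.79 and −2.91, but they use the p53−/− 0 h reading that was not above background. With the bounds on the p53−/− rise the difference was at most 0.33, −0.14 and −1.25, so only the 48 h value was set beyond 2-fold. For PVR they were −1.39, −1.40 and −1.07 (technical SD 0.10).

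The signalling route to PD-L1 was measured beside CD274. Of 14 genes of this route and of PD-L1 protein regulators, all were above background on all arrays, and 2 were higher and 0 lower in treated p53+/+ cells. Over all 15811 genes above background on at least 1 array, 1812 were higher and 1487 lower. STAT2, a transcription factor of type I interferon signalling, passed at 1.11 (limma adjusted p = 0.0368), and STAT3 passed at 0.92 (limma adjusted p = 0.0228). IRF1, a factor known to bind response elements of the kind marked in the CD274 promoter, read 0.75, 0.22, 0.70 and 0.35 in p53+/+ cells, against −1.88, 0.23, 0.16 and 0.25 in p53−/− cells. It was low on the p53−/− 0 h array, where CD274 was also at its lowest, and 4.30-, 4.10- and 4.35-fold higher on the treated p53−/− arrays. On that 0 h array CD274 was not above background, and its second probe did not show a rise. A link between IRF1 and CD274 was not tested. On the treated arrays IRF1 differed by 0.21 (limma adjusted p = 0.491). With no scaling 0 genes of this list were higher and 5 lower, and without the 12, 24 or 48 h arrays 0 were called in either direction.

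Other ligands of the same families were measured on the same arrays. The median limma difference was 0.13 over the 8 ligands tested and 0.04 over all genes above background. Of 8 tested B7, butyrophilin-like and nectin genes outside the 10, 4 were higher in treated p53+/+ cells and 0 lower, with a median of 0.83. Among all 15811 genes above background, 1812 were higher and 1487 lower. NECTIN4, a nectin that also binds TIGIT, read −3.67, 2.40, 2.92 and 2.86 in p53+/+ cells, against −1.94, −2.86, −2.54 and −2.48 in p53−/− cells (limma 5.35). The others were VSIR (VISTA, 1.43), NCR3LG1 (B7-H6, a ligand of the NK cell receptor NKp30, 1.11) and NECTIN1 (0.98).

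Of 11 tested checkpoint and costimulatory genes of the TNF, galectin and immunoglobulin families, 6 were higher and 0 lower, with a median of 1.42. The counts over all 15811 genes above background were 1812 higher and 1487 lower. Testing needed only 1 array above background, so a gene could enter through the arrays where it was high. TNFRSF14, CEACAM1 and TNFSF4 were above background on 4 arrays and CD40 on 1. Where all 6 treated arrays had to be above background, 4 of 7 were higher and 0 lower. TNFRSF14 (HVEM), which binds the inhibitory receptor BTLA, read −5.70, 0.87, 1.79 and 1.45 in p53+/+ cells, against −6.09, −5.93, −5.08 and −5.21 in p53−/− cells. It was at least 83.0-fold higher in p53+/+ at 12 h. CEACAM1, an adhesion protein that binds TIM-3, read −5.73, −0.54, −0.25 and −1.16, against −6.23, −6.71, −7.62 and −4.61 in p53−/− cells. It was at least 31.4-fold higher in p53+/+ at 12 h, and the levels lay closer together at 48 h. CD70, the ligand of CD27, read 0.69, 4.11, 4.46 and 4.13 in p53+/+ cells, against 0.04, 1.32, 2.65 and 2.62 in p53−/− cells (limma 2.03). TNFSF9 (4-1BB ligand) differed by 2.45. Without the 12 h arrays the calls were 1 of 8 and 5 of 11, without the 24 h arrays 1 of 8 and 1 of 11, without the 48 h arrays 3 of 8 and 2 of 11, and with no scaling 2 of 8 and 4 of 11. The epithelial markers above moved the same way, and their part was not tested.

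Of 14 receptor genes of T cells, NK cells and macrophages, 9 were above background on at least 1 array, and limma called 0 higher and 0 lower in treated p53+/+ cells. At an unadjusted p under 0.05 the counts were also 0 and 0. With no scaling 2 were lower, and with no filter on dim probes 2 were higher. Of 7 CD47 partners and modifiers, 1 was higher and 2 were lower, against 0 and 3 with no scaling. For both lists the counts over all 15811 genes above background were 1812 higher and 1487 lower. The higher call was lost with quantile normalization and without the 12, 24 or 48 h arrays, and the lower calls numbered 1 without the 24 h arrays. CALR, calreticulin, which at the cell surface promotes phagocytosis, was 0.85 higher. THBS1, thrombospondin-1, a secreted ligand of CD47, read 4.30, 1.44, 1.24 and 1.47 in p53+/+ cells, against 4.33, 3.20, 3.43 and 3.11 in p53−/− cells (limma −1.87). ITGB3, an integrin chain that associates with CD47, differed by −3.11. It was above background on 5 arrays only. On the treated p53+/+ arrays it read −5.90, −6.17 and −5.72, below the lowest level well above background there. It thus entered the test through the arrays where it was high. Where all 6 treated arrays had to be above background, 1 of 5 partners was higher and 1 lower. SIRPA, the receptor of CD47, stands in both of these lists and differed by 0.33 (limma adjusted p = 0.517).

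**Figure D4:**
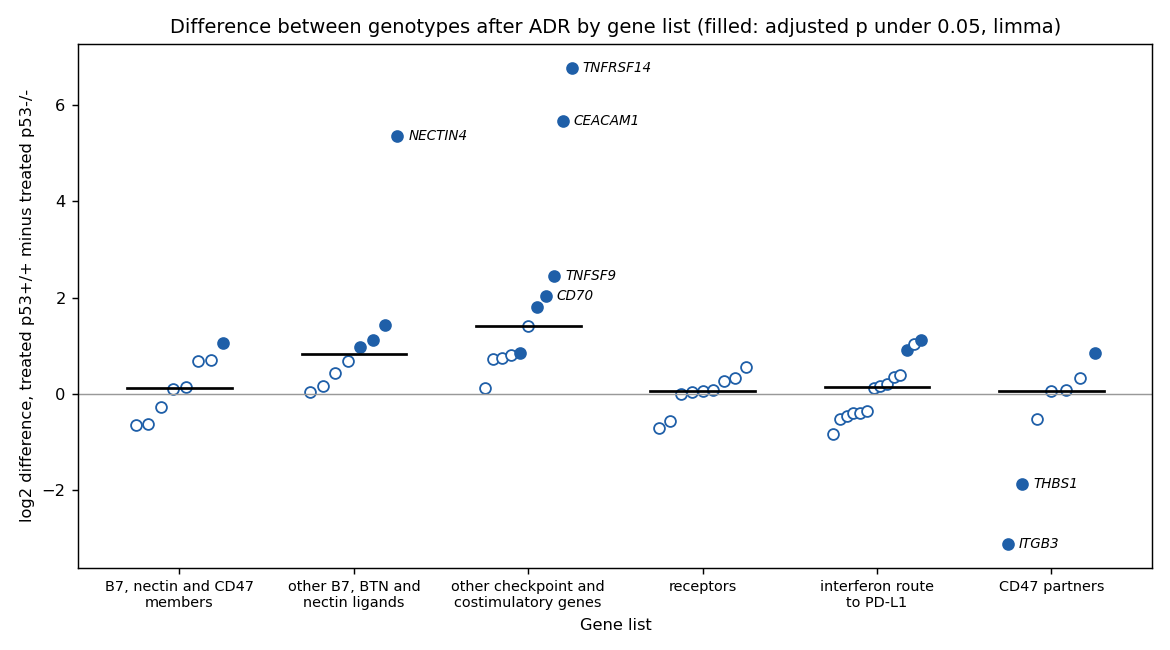
Difference between treated p53+/+ and treated p53−/− cells (vertical axis, log2, limma over 6 arrays) for each tested gene of 6 lists (horizontal axis). Filled points passed an adjusted p of 0.05, and black lines are medians. The 10 ligands, of which 8 were tested, have a median of 0.13, against 1.42 for the other checkpoint and costimulatory genes. The largest values there are TNFRSF14 and CEACAM1, each above background on 4 arrays.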

How the data were processed

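Total RNA of MCF10A p53+/+ and p53−/− cells was hybridised to 8 single-colour Agilent arrays, 1 per genotype and time point, all on 1 slide, where each genotype had its own block of positions, so that slide position cannot be told apart from genotype. The authors deposited scanner output whose processed signal is an intensity already corrected for background by Agilent Feature Extraction (10.7.3.1, per the submitters' processing notes). A series-wide table carried identical intensity values (503808 of 503808 equal). The headers name build hg19.

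Outlier and uneven spots (233 to 370 of 58717 per array) were left out, and 0 spots were saturated. The log2 intensity minus that of the 75th percentile of each array, computed here from the deposited signals, was then taken as the mean of each probe's spots. Of 42391 probes, 27227 (64.2%) were named through RefSeq accessions. The 75th percentile was a signal of 659 to 1193, and 49.8 to 62.9% of probes were well above background per array. The number of arrays limits the precision.

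A change of at least 2-fold was counted where the brighter array was well above background. limma (lmFit, eBayes) was fitted on genotype over the 6 treated arrays for 28947 probes above background on at least 1 array, with Benjamini-Hochberg adjustment over all of them and a threshold of 0.05, two-sided. Its p-values measure only the spread between these samples. Of these probes 9819 had an unadjusted p under 0.05. Time points paired the genotypes: deviations from the genotype means correlated at 0.24, 0.19 and 0.14 at 12, 24 and 48 h.

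Alternatives were quantile, median and no scaling, normexp (offset 50) on the median spot signal, a signal floor, the mean of probes, other filters, 3-fold, other baselines, each time point left out and time point as a block. Genes outside the 10 were named, at most 4 per list, where they passed 2-fold at all 3 times in a genotype or the limma threshold. A few genes within these rules are not reported here. Scripts were tested on simulated data. The members and the lists were chosen with earlier results of these data known. The HCT116 arrays of the study were not analysed here. Python 3.11.15, numpy 2.4.6, pandas 2.3.3, matplotlib 3.10.9, R 4.3.3 and limma 3.58.1 served for all steps.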

Additional observations from a re-analysis of the deposited data

Results flagged for a closer look

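CD86 and NECTIN2 had changes of opposite sign from 0 h in the 2 genotypes at all 3 times. For CD86 the mean difference of the log2 changes, p53+/+ minus p53−/−, was 1.90, with values above 0 h in p53+/+ and below it in p53−/− cells, as in 11.5% of genes. For NECTIN2 it was −0.76, with changes of −0.11, −0.06 and −0.08 in p53+/+ cells, the last 2 within the technical SD (0.08 to 0.09), and 0.48, 0.67 and 0.86 in p53−/− cells, as in 10.8% of genes. The second NECTIN2 probe was above 0 h in both genotypes at 12 and 24 h, and from the p53−/− 0 h array the brighter probe was at 0.79, 0.85 and 0.83 in p53+/+ cells. With 1 array per condition neither difference was tested, and both use the array labelled p53+/+ 0 h, which carries the doubt described above.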

How the results depend on the processing

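Scaling set the level of the genotype comparison: the median difference over all genes was 0.04 here, −0.55 with no scaling, −0.09 with median scaling, −0.07 with quantile normalization, 0.18 with normexp and 0.16 with a signal floor. Of 5176 probes called, 58.3% were higher in p53+/+ cells, against 48.3% with quantile normalization, 45.4% with median scaling, 14.5% of 9393 with no scaling, 72.5% of 9635 with normexp, 71.1% of 9421 with a signal floor, 78.1% of 12491 with no filter, and 70.8% of 291 without the 24 h arrays. Leaving out each time point gave 291 to 2664 calls. With time point as a replicate block 4449 probes and 1 ligand, CD86, were called, and the block changed no other ligand's call.

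Ligands called by limma numbered 1 here, 0 with no scaling, 3 with normexp (CD274, PDCD1LG2 and CD86), 0 to 0 with a time point left out, and 0 where a probe had to be above background on all 6 treated arrays, which removed CD86 from the test. Ligands rising at all 3 times in p53+/+ cells went from 0 to 1 (CD274) from the p53−/− 0 h array. Falls there went from 0 to 1 (PVR) with median or no scaling, and 0 to 1 over left-out time points, the 1 being PVR without 12 h. Rises in p53−/− cells went from 1 to 2 with no scaling (CD274 and CD47) and to 0 with normexp, the mean of probes or a signal floor. Falls there went from 1 (CD86) to 0 with quantile normalization, median or no scaling, normexp or the 3-fold rule. A change in p53+/+ above that in p53−/− went from 1 to 0 with no scaling, normexp, 3-fold or no 0 h array. A change below it went from 2 to 5 with no scaling, to 1 with the mean of probes or a floor, and to 0 with normexp, 3-fold or no 0 h array. The cause of these moves was not tested.

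The direction of the genotype estimate turned for CD276 (−0.030 with median scaling, −0.49 with no scaling, and −0.16 to 0.34 over left-out time points, the lowest without 48 h), NECTIN2 (−0.44 with no scaling, −0.053 with normexp) and VTCN1 (0.24 with normexp, 0.40 with a floor). Calls per list under every alternative were computed after seeing the data. For CD274, PDCD1LG2, VTCN1 and CD86, readings at or near background limit what a change can show.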
